A study of Mus musculus with 24 samples.

Results

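The MAP kinase cascade and its phosphatases were described through the m6A peaks of their transcripts in mouse kidney. Members were the protein-coding genes of the GRCm38 annotation whose symbol is Mapk, Map2k, Map3k, Map4k or Dusp followed by a digit. The rule took 73 of 21951 protein-coding genes. They comprise 5 MAP4K, 18 MAP3K, 7 MAP2K and 13 MAPK genes, 10 MAP kinase phosphatases, 14 atypical dual-specificity phosphatases and 6 scaffolds or other proteins named after a cascade kinase. A member counted as methylated in a kidney when at least 1 peak of that kidney overlapped its exons on its own strand, and as absent otherwise.

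The study used MeRIP-seq, in which an antibody pulls down RNA fragments that carry N6-methyladenosine (m6A) and enriched stretches are called as peaks. Whole kidneys came from male C57BL/6 mice, 8 weeks old when assigned to 3 groups of 4. Control mice and mice of the injury group (IG) were given saline for 14 days, and mice of the treatment group (TG) were given the plant alkaloid berberine at 20 mg/kg per day over the same 14 days. IG and TG mice then received the chemotherapy drug cisplatin intravenously at 20 mg/kg, controls received vehicle, and kidneys were removed after 72 h. The comparison IvC sets IG against control and TvI sets TG against IG, so both use the same IG kidneys. Berberine was never given without cisplatin, so TvI compares pretreated with untreated injury only.

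In the cascade, MAP4K and MAP3K enzymes pass signals from receptors, GTPases and cell stress to MAP2K enzymes, and these activate a conventional MAPK by phosphorylating a threonine and a tyrosine in its activation loop. The ERK kinases respond mainly to growth factors, whereas the JNK and p38 kinases respond mainly to stress, including DNA damage by platinum drugs in the renal tubule. MAP kinase phosphatases, encoded by Dusp genes, remove both phosphates and so end the signal. m6A is added to many mRNAs at RRACH sequences (R is A or G, H is A, C or T), often in long internal exons and around the stop codon, and can affect splicing, translation and decay.

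The kidney lists hold between 5901 and 9579 peaks. Control lists were the longest (8531 to 9579 peaks), IG lists were intermediate (6745 to 8357) and TG lists were the shortest (5901 to 6753), with 1 TG list just longer than the shortest IG list. Without read counts in the lists, sequencing depth is unknown, no counting interval can be given, and an absent peak may lie below the calling threshold. Presence of a peak is not a methylation level, and RNA-seq and the 12 input libraries, which would separate methylation from abundance, were not analysed here. In a whole kidney, fewer cells of a type and less RNA per cell cannot be told apart. Of the 506 peaks in member loci, 301 (59.5%) spanned a whole exon exactly, so the position of m6A inside an exon was mostly not resolved.

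Peaks were found on 40 of the 73 members (54.8%) in at least 1 of the 12 kidneys, beside 7774 (35.4%) of all protein-coding genes. A peak in all 12 kidneys was found on 8 members (10.96%), beside 8.60% of all genes, which is 20% of the members with any peak and 24.3% of all genes with any peak. The 4 control kidneys held a peak on 29, 28, 27 and 30 members (28.5 ± 1.29, SD, n = 4), the IG kidneys on 24, 24, 22 and 23 (23.25 ± 0.957), and the TG kidneys on 19, 17, 17 and 18 (17.75 ± 0.957). The counts of the 3 groups did not overlap, with controls highest and TG lowest. Among all protein-coding genes the means were 4966 ± 165, 4378.25 ± 245 and 3836 ± 231, so the whole annotation showed the same order. The difference was -18.4% for the members and -11.8% for all genes in IvC, and -23.7% and -12.4% in TvI. With each list shortened to its 5901 highest-scoring peaks, the member means were 21.5 ± 1.29, 20 ± 2.58 and 17.25 ± 0.5, and the all-gene means were 3693, 3681 and 3610.25. The IvC difference in members, 1.5 at equal list lengths, was then smaller than the SD of the IG kidneys. No p-value is given for these sums, since the members were chosen as a list.

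Of the 40 members with a peak, 24 had peaks in all 3 groups, 7 in control kidneys only and 4 in IG kidneys only. Another 4 had peaks in control and IG but not TG kidneys, 1 had peaks in IG and TG but not control kidneys, and none was limited to TG. Among the 7774 genes of the annotation with a peak, 56.4% had peaks in all 3 groups, 14.3% in control kidneys only, 6.84% in IG kidneys only and 3.19% in TG kidneys only, and the shares of the 40 members were 60%, 17.5%, 10% and 0%. Members found in every kidney of their group numbered 20 in controls, 17 in IG and 10 in TG, beside 3547, 2803 and 2432 among all genes. Where 3 counts of kidneys are given together, they stand for control, IG and TG, each out of 4.

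Sequences are shown for the exons with a peak in all 4 control and no IG kidneys, and for the exon with the widest difference in the other direction. The former are exons 10 and 11 of 12 of Map2k6, exon 2 of 3 of Dusp7 and exon 1 of 20 of Map3k1, and the latter is exon 2 of 4 of Dusp10. All bases shown are coding, read from the RefSeq copy of GRCm38.p6 on the strand of the gene from 5′ to 3′, with overlapping RRACH matches in capitals. Where an exon was longer than 240 bases, the 240-base coding stretch with the most RRACH matches is shown. The coordinates are chr11:110499383-110499522 (+) and chr11:110506706-110506751 (+) for Map2k6, chr9:106370722-106370961 (+) for Dusp7, chr13:111808558-111808797 (-) for Map3k1 and chr1:184037022-184037261 (+) for Dusp10.
Map2k6 exon 10: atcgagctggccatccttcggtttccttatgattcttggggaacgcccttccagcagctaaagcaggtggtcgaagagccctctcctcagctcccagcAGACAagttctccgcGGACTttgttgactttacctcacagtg
Map2k6 exon 11: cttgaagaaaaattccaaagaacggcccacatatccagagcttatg
Dusp7 exon 2: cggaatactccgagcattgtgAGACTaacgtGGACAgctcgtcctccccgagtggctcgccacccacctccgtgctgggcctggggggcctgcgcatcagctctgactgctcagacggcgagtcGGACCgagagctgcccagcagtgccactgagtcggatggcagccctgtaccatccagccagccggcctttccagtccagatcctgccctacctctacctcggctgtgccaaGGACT
Map3k1 exon 1: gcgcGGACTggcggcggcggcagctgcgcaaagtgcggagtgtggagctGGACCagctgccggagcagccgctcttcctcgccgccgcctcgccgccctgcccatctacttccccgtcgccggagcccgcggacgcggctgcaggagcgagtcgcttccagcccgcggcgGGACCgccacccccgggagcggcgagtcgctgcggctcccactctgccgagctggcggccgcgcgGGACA
Dusp10 exon 2: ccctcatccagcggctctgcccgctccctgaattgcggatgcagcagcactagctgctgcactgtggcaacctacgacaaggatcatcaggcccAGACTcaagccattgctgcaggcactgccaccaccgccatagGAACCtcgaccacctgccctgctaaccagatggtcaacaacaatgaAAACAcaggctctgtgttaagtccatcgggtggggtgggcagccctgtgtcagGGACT
Map2k6 exon 10 (140 bases) held 2 RRACH matches, 1 of them GGACT, while exon 11 (46 bases) held 0. The Dusp7 stretch held 4 of the 5 matches of its exon, the Map3k1 stretch all 4 and the Dusp10 stretch 4 of 8, and each contained 1 GGACT. On the opposite strand the same 5 stretches held 2, 0, 1, 0 and 1 RRACH matches. A match describes letters and marks no measured methylation site.

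MAP4K enzymes are STE20-type kinases at the top of the cascade, and peaks were found on 2 of the 5. On average 1.75, 1.25 and 1 of them had a peak in control, IG and TG kidneys. Map4k4, which acts upstream of JNK and in cell migration, had a peak in all 12 kidneys and the highest mean score percentile of any member (96.7). The percentile is the rank of the best-scoring peak of a gene within the list of its kidney, with 100 as the top, and the score is the deposited peak score, which grows with the significance of enrichment. Its percentile was 94.1, 93.6, 92.2 and 92.0 in control kidneys, 99.8, 99.2, 99.2 and 98.1 in IG kidneys and 98.1, 98.5, 98.3 and 97.7 in TG kidneys. Every IG and TG kidney lay above every control kidney, while IG and TG overlapped. The IvC means were 93.0 ± 1.02 and 99.1 ± 0.718 (n = 4 each), with p = 0.0286 in a two-sided exact permutation test, the smallest p that 4 against 4 kidneys allow, and an adjusted p of 0.123 over all genes tested.

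Map4k4 had 8 peak loci, mostly on consecutive internal coding exons of its 31 exons. Exon 12 (chr1:39990089-39990299) and exon 13 (chr1:39997021-39997182), both on the plus strand of GRCm38, had a peak in all 12 kidneys and are shown because their scores carry the difference.
Map4k4 exon 12: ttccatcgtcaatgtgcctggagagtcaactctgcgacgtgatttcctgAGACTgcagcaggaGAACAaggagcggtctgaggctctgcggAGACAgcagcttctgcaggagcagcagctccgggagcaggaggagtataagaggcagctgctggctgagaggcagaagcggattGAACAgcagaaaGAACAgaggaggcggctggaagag
Map4k4 exon 13: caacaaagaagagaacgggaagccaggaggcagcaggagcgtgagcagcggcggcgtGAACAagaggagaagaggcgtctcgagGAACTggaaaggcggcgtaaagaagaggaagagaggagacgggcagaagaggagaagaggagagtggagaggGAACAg
Exon 12 held 5 RRACH matches in 211 bases and exon 13 held 3 in 162 bases, neither with GGACT, and the opposite strands held 1 and 0. The score of exon 12 was 909.96, 834.13, 705.89 and 757.82 in control kidneys, 3115.25, 2295.42, 2016.56 and 2702.41 in IG kidneys and 1532.44, 2859.94, 2414.88 and 2182.04 in TG kidneys. The score of exon 13 was 382.9, 570.31, 593.08 and 642.34 in controls, 3100 in 3 IG kidneys and 2754.02 in the other, and 2441.91, 2831.04, 2683.94 and 2570.62 in TG. At both exons every cisplatin-treated kidney scored above every control kidney. Scores of exactly 3100 were shared by 1086 of the 91013 peaks in all lists, so scores near that value cannot be ranked finely. The neighbouring exons 10 and 11 scored 17.99 to 274.66 and 31.91 to 126.15 over the kidneys with a peak. On exon 11 the score was 31.91 to 37.78 in 3 control kidneys, 39.16 to 72.23 in 3 IG kidneys and 42.57 to 126.15 in the 4 TG kidneys. There too, every cisplatin-treated kidney with a peak scored above every control kidney with one, whereas on exon 10 the groups overlapped. Map4k3, a kinase of the amino acid response of mTOR signalling, had peaks in 3 control kidneys, 1 IG kidney and no TG kidney. Map4k1, Map4k2 and Map4k5 had no peak in any kidney.

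**Figure D1:**
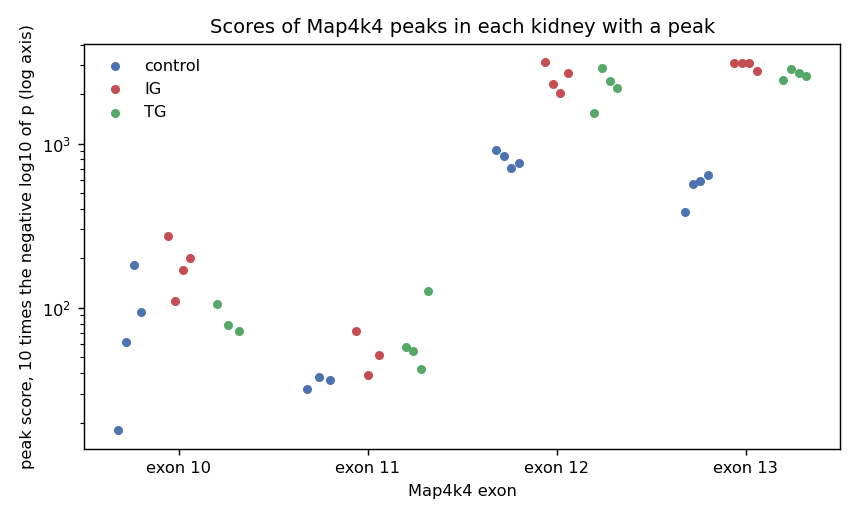
Deposited peak score (log axis) on Map4k4 exons 10 to 13 in each of the 12 kidneys, by group. On exons 12 and 13 the IG and TG kidneys all lie above the control kidneys, and on exon 11 all those with a peak do. On exon 10 the groups overlap, and on exons 10 and 11 no score exceeds 274.66.

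MAP3K enzymes receive stress and cytokine signals and phosphorylate MAP2Ks, and they were the tier with the most peaks. Peaks were found on 14 of the 18, with 11.5 ± 0.577, 11.25 ± 0.957 and 8.5 ± 0.577 members per kidney in control, IG and TG. At equal list lengths the means were 8.75, 9.75 and 8.5, so the order of control and IG turned and the TG mean stayed. Map3k7, Map3k12, Map3k15 and Map3k19 had no peak.

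Members of the MAP3K tier with a peak in all 12 kidneys and the highest mean percentiles were Map3k4 (83.7), Map3k9 (81.9) and Map3k1 (72.01). Map3k4, a stress kinase switched on by GADD45 proteins, had 10 peak loci, the most of any member. Its percentile was 92.1, 83.1, 87.2 and 91.3 in controls, 77.5, 79.6, 89.5 and 82.2 in IG and 79.8, 80.6, 78.4 and 82.9 in TG kidneys. As a rank within lists of unequal length, every TG value was lower than every control value, by as little as 82.9 against 83.1, whereas the deposited best scores overlapped (374 in TG replicate 4 and 328.15 in control replicate 2). IG overlapped both. Exons 2 and 3 of Map3k4 had a peak in all 12 kidneys and differed from each other. Exons are numbered by the transcript with the longest coding sequence. The exon 2 locus, of 733 bases, reaches beyond the 191 bases of that exon. On exon 2 the score was 707.49, 328.15, 435.29 and 697.49 in controls, 115.3, 236.09, 95.21 and 109.12 in IG and 159.67, 237.35, 241.73 and 121.45 in TG kidneys, so every cisplatin-treated kidney scored below every control kidney. On exon 3, of 1358 bases, the score was 123.8 to 274.93 in controls, 256.24 to 578.28 in IG and 220.24 to 374 in TG kidneys, and the groups overlapped. Scores of single exons were not tested, and 5 of its loci were seen in control kidneys only, each in 1 or 2 of them.

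Map3k9, a mixed lineage kinase upstream of JNK, had a percentile of 81.8, 66.1, 82.1 and 80.7 in controls, 86.0, 86.0, 88.1 and 91.0 in IG and 86.6, 82.6, 74.9 and 76.2 in TG kidneys. All IG kidneys lay above all controls, and TG kidneys spread across both. The IvC means were 77.7 ± 7.76 and 87.8 ± 2.39 (two-sided exact permutation test, p = 0.0286, adjusted p = 0.123). The difference of 10.1 points was 6.23 without control replicate 2, the lowest control, with the exact p still at 0.0286. Without IG replicate 3 it was 9.99 (exact p = 0.0571) and without IG replicate 4 it was 9.01 (exact p = 0.0857), so the call was lost at a difference of about the same size.

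Map3k1, a kinase with a ubiquitin ligase domain that acts upstream of JNK, had a peak in all 12 kidneys as a gene but differed between groups at exon 1. Its percentile as a gene was 80.5, 77.3, 81.2 and 79.3 in controls, 59.1, 61.7, 87.4 and 62.9 in IG and 82.7, 66.2, 81.7 and 44.3 in TG kidneys, with the groups overlapping. The peak on its exon 1, the exon with the start codon, scored 62.76, 97.14, 85.66 and 33.86 in the 4 control kidneys and was found in no IG and no TG kidney. At equal list lengths the peak of control replicate 4 was dropped, leaving 3, 0 and 0 kidneys, and 2, 0 and 0 kidneys had a score of at least 71.3, the median of every list together, so under both the call on exon 1 was lost. Exon 2 had a peak in all 12 kidneys, and exon 14, its longest internal coding exon with a peak at 1252 bases, had a peak in 4, 3 and 2 kidneys of control, IG and TG.

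The mixed lineage kinases Map3k9, Map3k10, Map3k11 and Map3k21 each had peaks on the last exon and on the long coding exon before it or close to it. Map3k9 had peaks on exons 11 (813 bases) and 12 of 12 in all 12 kidneys, and also nearer its start, on exons 2 and 3 in 1, 3 and 3 kidneys each, on exon 6 in 0, 2 and 0 and on exon 1 in 0, 1 and 0. Map3k10 had them on exon 11 of 11 in all 12 kidneys and on exon 9 (681 bases) in 3, 2 and 3 kidneys of control, IG and TG. The loci on the last exons of Map3k9 and Map3k10, of 1442 and 612 bases, reach beyond the 485 and 323 bases of those exons. Map3k21 had them on exons 9 (759 bases) and 10 of 10 in 3, 4 and 2 and in 4, 3 and 3 kidneys.

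Map3k11 (MLK3), another activator of JNK, had the largest TvI difference in presence of the members with all peaks counted, with a peak in 4 control, 4 IG and 1 TG kidney. The score of its last exon (exon 12) was 350.23, 229.85, 366.55 and 415.43 in controls, 290.83, 380.37, 15.54 and 47.17 in IG kidneys and 105.95 in TG replicate 4, with no peak in the other TG kidneys. IG replicates 3 and 4 were thus already below every control kidney. On exon 11 (381 bases) a peak was found in 4 control kidneys, 1 IG kidney and no TG kidney. The two-sided Fisher's exact test gave p = 0.143 in TvI, and the counts were 4 of 4 against 0 of 3 without TG replicate 4. The TvI difference at equal list lengths was -2 kidneys (3 IG and 1 TG), and among scores of at least 71.3 it was -1 (2 IG and 1 TG).

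Other MAP3K members had lower percentiles. Map3k13 and Map3k10 had a peak in all 12 kidneys with mean percentiles of 67.7 and 60.9. Map3k2 and Map3k20 had a peak in all control and IG kidneys and in 3 TG kidneys, as Map3k21 did. Map3k8, a MAP3K of the ERK branch in macrophages, had a peak in 3, 4 and 3 kidneys, with percentiles of 3.84, 16.4 and 3.49 in controls, 49.1, 44.4, 38.8 and 64.1 in IG and 46.3, 50.4 and 20.9 in TG kidneys. All its values after cisplatin lay above all control values, and at equal list lengths its peaks were in 0, 4 and 3 kidneys; it was singled out after its values were seen. Map3k5 (ASK1) had peaks in 2 control and 2 IG kidneys, Map3k6 in 2 control kidneys, Map3k14 in 3, 2 and 1 kidneys and Map3k3 in 1 IG kidney.

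MAP2K enzymes activate the conventional MAPKs, and peaks were found on 4 of the 7. Control kidneys held a peak on 3, 4, 4 and 3 of them, IG kidneys on 1, 1, 2 and 1 and TG kidneys on 1 each, so controls did not overlap the other groups in the complete lists. Over all protein-coding genes controls did not overlap them either, with a peak on 4775 to 5138 genes in control, 4091 to 4685 in IG and 3607 to 4111 in TG kidneys. At equal list lengths controls held 2, 3, 3 and 2, IG kidneys 1, 1, 2 and 1 and TG kidneys 1 each (means of 2.5, 1.25 and 1), so control and IG met at 2.

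Map2k6 (MKK6), an activator of p38, had a peak in 4 control kidneys and in none of the 8 kidneys treated with cisplatin. On exon 10 its score was 36.43, 64.4, 139.49 and 88.78, and on exon 11 it was 28.01, 106.36, 86.55 and 82.22, in controls 1 to 4. Its percentile of 31.1, 60.5, 66.6 and 54.1 lay in the middle of the control lists. Fisher's exact test gave p = 0.0286 for IvC and an adjusted p of 0.564, so the difference did not pass correction over 7526 genes. At equal list lengths, as among scores of at least 71.3, Map2k6 had a peak in 3 control kidneys and in none after cisplatin, and the call was lost.

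Map2k7 (MKK7), the JNK-specific activator, had a peak in control kidneys 1 to 3, with percentiles of 90.8, 88.5 and 5.49, and in no other kidney. This locus, of 2203 bases, reaches beyond the 241 bases of the last exon and overlapped an exon of Gm49320 on the same strand. Its reads thus cannot be assigned to Map2k7 alone. Map2k4 (MKK4), which also activates JNK, had a peak in 3 control kidneys, 1 IG kidney and no TG kidney. Map2k2 (MEK2), an activator of ERK, was the only MAP2K with a peak in all 12 kidneys, on its last exon. Its percentile was 92.8, 96.9, 92.4 and 98.3 in controls, 93.2, 88.5, 96.0 and 91.0 in IG and 96.2, 89.8, 92.5 and 90.3 in TG kidneys, with all groups overlapping. Map2k1, Map2k3 and Map2k5 had no peak.

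**Figure D2:**
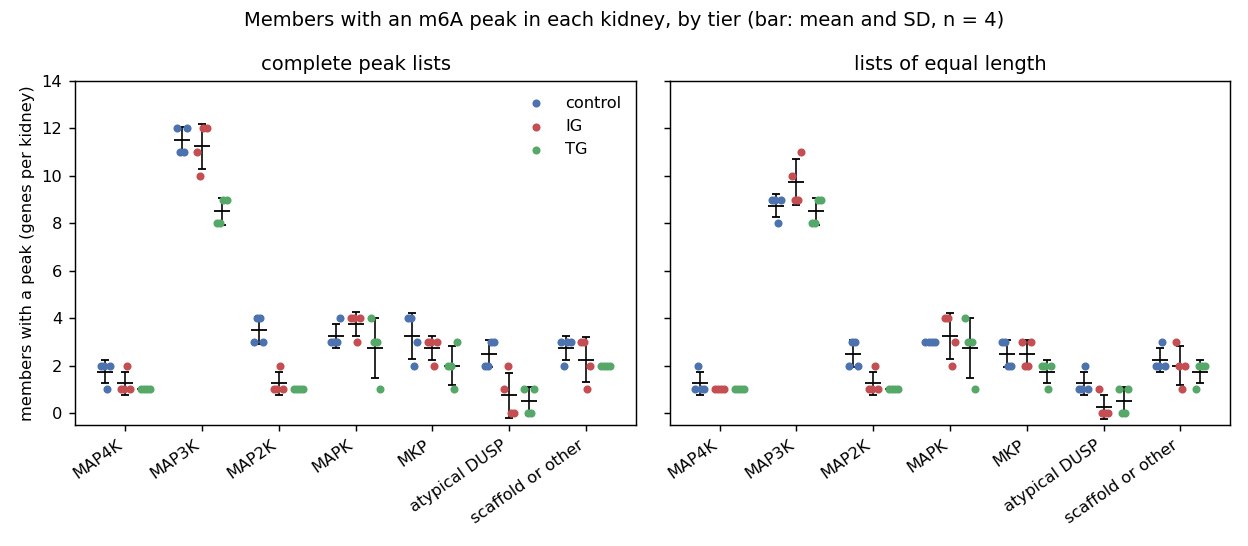
Number of members with a peak in each kidney, by tier and group, for the complete lists and for lists of equal length, with points for kidneys and mean ± SD. In the complete lists the MAP2K counts of 3 to 4 in controls stand apart from 1 to 2 in IG and 1 in TG, but at equal lengths controls (2 to 3) and IG (1 to 2) meet, and the complete-list MAP3K means of control and IG (11.5 and 11.25) lie together above TG (8.5).

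MAPK genes encode the final kinases of the cascade, and peaks were found on only 5 of the 13, with means of 3.25, 3.75 and 2.75 per kidney, and of 3, 2.5 and 1.5 among scores of at least 71.3, where the order of control and IG turned. Members of this tier without a peak in any kidney included Mapk3, Mapk6, Mapk10, Mapk11, Mapk12, Mapk13 and Mapk15. Mapk9 (JNK2) was the MAPK with a peak in all 12 kidneys. Its percentile was 86.0, 69.5, 71.7 and 74.0 in controls, 73.4, 65.1, 57.7 and 40.7 in IG and 57.3, 58.9, 65.2 and 61.8 in TG kidneys. All TG kidneys lay below all controls, and IG overlapped both.

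Mapk8 (JNK1) and Mapk9 are close paralogs and had peaks on the same pair of internal coding exons, exons 9 and 10 of 12, of 125 and 64 bases in each gene. Their sequences are shown to compare the exons, from GRCm38.p6 at chr14:33387172-33387296 (-) and chr14:33386562-33386625 (-) for Mapk8 and at chr11:49879702-49879826 (+) and chr11:49881219-49881282 (+) for Mapk9, with RRACH matches in capitals.
Mapk8 exon 9: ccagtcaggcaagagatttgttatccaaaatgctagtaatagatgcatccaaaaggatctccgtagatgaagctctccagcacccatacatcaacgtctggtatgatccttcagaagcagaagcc
Mapk9 exon 9: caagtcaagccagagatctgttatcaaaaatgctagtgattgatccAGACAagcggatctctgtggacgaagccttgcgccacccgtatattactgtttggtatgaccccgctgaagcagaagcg
Mapk8 exon 10: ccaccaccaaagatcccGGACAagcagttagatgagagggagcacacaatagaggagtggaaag
Mapk9 exon 10: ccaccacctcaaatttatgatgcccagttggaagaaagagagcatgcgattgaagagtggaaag
The exon 9 sequences were identical at 75.2% of positions and the exon 10 sequences at 68.8%. Mapk9 had a peak on exon 9 in all 12 kidneys and on exon 10 in 3, 4 and 4 kidneys of control, IG and TG. Mapk8 had a peak on exon 9 in 1, 3 and 1 kidneys and on exon 10 in 0, 0 and 1. RRACH matches numbered 1 in Mapk9 exon 9 and 1 in Mapk8 exon 10 and 0 in Mapk8 exon 9 and Mapk9 exon 10.

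Among the other MAPKs, Mapk4 (ERK4), an atypical MAPK, had a peak in 4, 4 and 3 kidneys, with percentiles of 70.5 to 87.8 in controls, 67.2 to 92.3 in IG and 48.7 to 80.3 in TG. Mapk7 (ERK5) had a peak in 4, 2 and 2 kidneys, at 63.3 to 84.8 in controls, 78.6 and 78.3 in IG and 33.2 and 10.4 in TG. Mapk8 as a gene had a peak in 1, 3 and 2 kidneys. Mapk14 (p38 alpha) had a peak only in 2 IG kidneys, at percentiles of 21.1 and 12.01.

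MAP kinase phosphatases inactivate MAPKs, and peaks were found on 7 of the 10, with means of 3.25, 2.75 and 2 per kidney. The means were 2.5, 2.5 and 1.75 at equal list lengths and 1.5, 2 and 0.5 among scores of at least 71.3, so control was not above IG under either. Dusp7, a cytoplasmic phosphatase of ERK, had a peak on exon 2 in the 4 control kidneys, with scores of 121.03, 44.98, 94.97 and 162.77, and no peak in any IG or TG kidney. Its last exon had a peak in 3 control kidneys and none after cisplatin. The IvC test gave the values of Map2k6 (Fisher's exact p = 0.0286, adjusted p = 0.564), and at equal list lengths the counts stayed at 4, 0 and 0. Among scores of at least 71.3 they were 3, 0 and 0, and the call was lost.

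Dusp10 (MKP-5), a phosphatase of JNK and p38, had the opposite pattern. Its exon 2 had a peak in control replicate 2 only, with a score of 34.6, in the IG kidneys with scores of 80.7, 179.42, 142.88 and 56.18 and in the TG kidneys with 47.6, 18.35, 72.7 and 80.02. Every IG kidney scored above that control kidney, and 1 TG kidney scored below it. The count of 1 against 4 kidneys gave p = 0.143 in Fisher's exact test. At equal list lengths, as without control replicate 2, Dusp10 had a peak in 0 control and 4 IG kidneys. Among scores of at least 71.3 the counts were 0, 3 and 2, and it was not called.

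Dusp16 (MKP-7), a JNK phosphatase, had a peak in 4, 4 and 3 kidneys. Its percentile was 76.5, 76.6, 43.8 and 70.7 in controls, 66.2, 75.0, 62.1 and 68.3 in IG and 50.2, 8.56 and 2.24 in TG replicates 1, 2 and 4. All IG kidneys lay above the 3 TG kidneys with a peak, and Dusp16 was singled out after its values were seen. Its peaks were found on exon 2, of 589 bases, in 4, 4 and 3 kidneys and on the last exon in 3, 2 and 1. Dusp6 had peaks on its exon 2 (438 bases) only, whereas Dusp10 had them on exon 3 in 1 IG kidney and on exon 4 in 1 IG and 1 TG kidney besides exon 2. Dusp6, the main ERK phosphatase, and Dusp4 had a peak in 2 control kidneys and in none after cisplatin, Dusp5 in 0, 2 and 1 kidneys and Dusp8 in 1 IG kidney. Dusp1, the immediate-early phosphatase of stress responses, Dusp2 and Dusp9 had no peak.

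**Figure D3:**
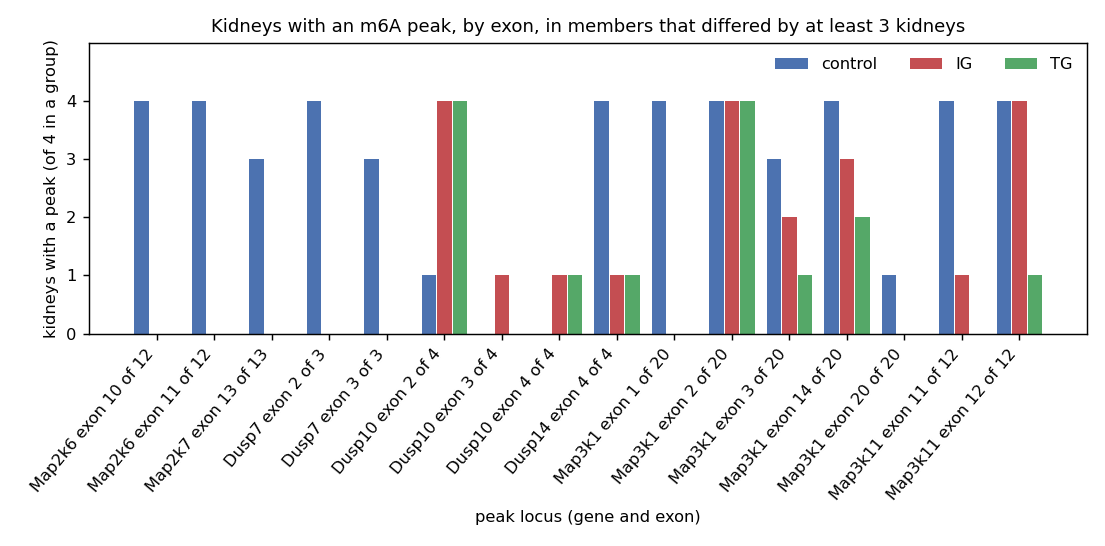
Number of kidneys of each group, from 0 to 4, with a peak on each exon of Map2k6, Map2k7, Dusp7, Dusp10, Dusp14, Map3k1 and Map3k11. Peaks on Map2k6 exons 10 and 11, Dusp7 exon 2 and Map3k1 exon 1 are in 4 control kidneys and in 0 IG and 0 TG kidneys, and Dusp10 exon 2 has the counts 1, 4 and 4.

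Atypical dual-specificity phosphatases lack the MAPK-docking domain and several act on other substrates. Peaks were found on 4 of the 14, with means of 2.5, 0.75 and 0.5 per kidney, and of 1.25, 0.25 and 0.5 at equal list lengths, where the order of IG and TG turned. Dusp14, which acts on TAK1 signalling, had a peak on its last exon in the 4 control kidneys with scores of 182.25, 34.68, 75 and 254.35, in IG replicate 2 with 21.56 and in TG replicate 4 with 25.21. Both values after cisplatin lay below every control value, and the IvC count gave p = 0.143 in Fisher's exact test. Dusp18 had a peak in 3, 1 and 1 kidneys, Dusp22 in 2 control kidneys and Dusp23 in 1 control and 1 IG kidney. Dusp3, Dusp11, Dusp12, Dusp13, Dusp15, Dusp19, Dusp21, Dusp26, Dusp27 and Dusp28 had no peak.

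Scaffolds and other proteins named after the kinases had peaks on 4 of 6, with means of 2.75, 2.25 and 2 per kidney. Mapk1ip1 had a peak in 4, 4 and 3 kidneys and Mapk1ip1l in 4, 2 and 1. Mapk8ip3 (JIP3), a scaffold that ties JNK to kinesin transport, had a peak in 3, 2 and 4 kidneys, and Mapk8ip1 (JIP1) in 1 IG kidney. Map3k7cl and Mapk8ip2 had no peak.

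**Figure D4:**
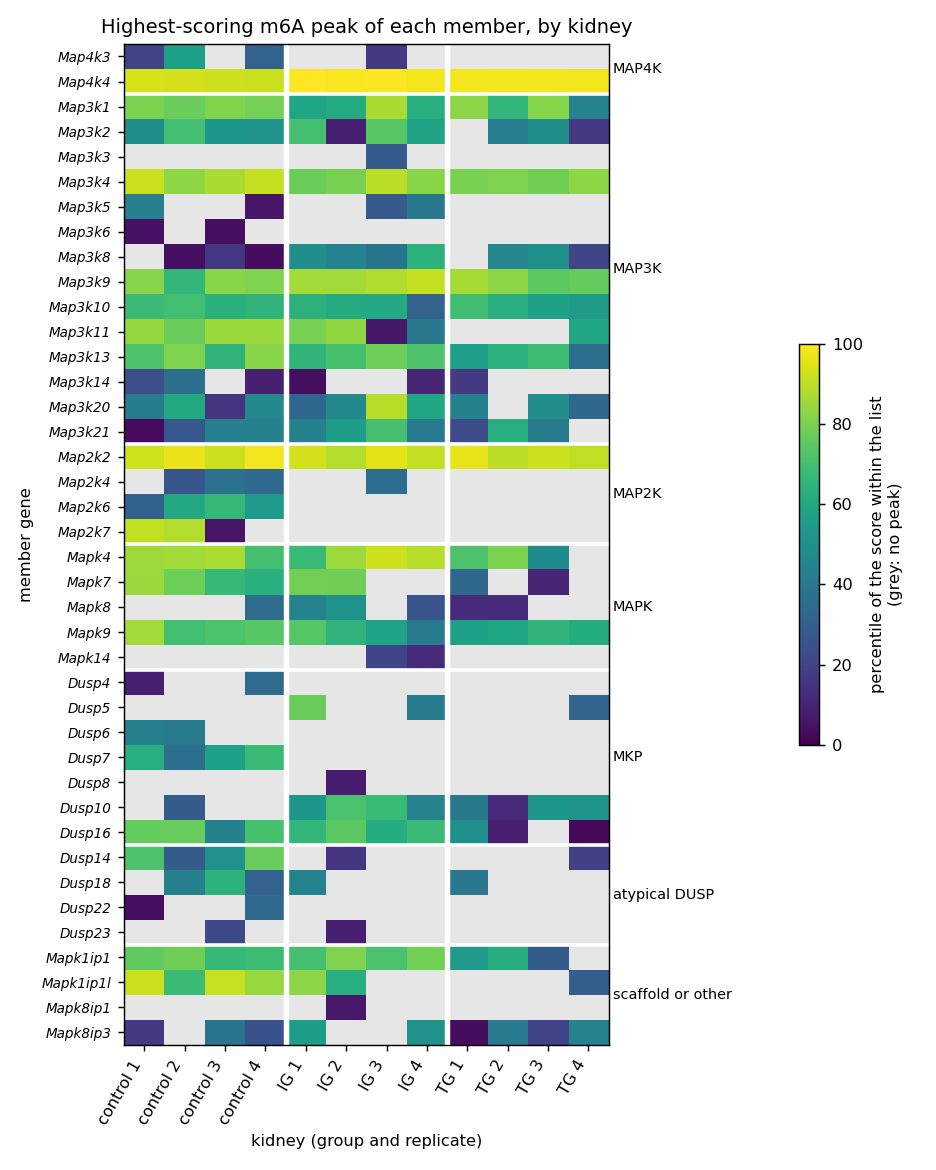
Score percentile of the best-scoring peak of each of the 40 members with a peak (rows, by tier) in each of the 12 kidneys (columns, by group), with grey cells where no peak was listed. Grey cells are most frequent in the TG columns, where 17 to 19 members have a peak beside 27 to 30 in the control columns.

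The presence of a peak on a gene was tested by Fisher's exact test, two-sided, over all genes with a peak in any of the 8 kidneys, where 4 of 4 against 0 of 4 is the only outcome with an unadjusted p under 0.05. In IvC, 2 of 40 members (Map2k6 and Dusp7) had a peak in all control and no IG kidneys, 5% of the members beside 3.16% of all genes tested. In the other direction 0 of 40 members were called, beside 1.9% of all genes. With lists of equal length the direction turned, with 1 member (Dusp7) higher in controls and 2 (Dusp10 and Map3k8) higher in IG, and with 131 and 146 of all genes in place of 238 and 143. With a difference of at least 3 kidneys, 4 of 40 members (10%), Map2k6, Map2k7, Dusp7 and Dusp14, were higher in controls, beside 8.98% of all genes, and Dusp10 alone was higher in IG (2.5%), beside 4.4%. These shares were close to those of all genes, and after Benjamini-Hochberg adjustment over 7526 genes no gene passed 0.05.

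In TvI, 0 of 33 members were called in either direction, beside 0.51% of all genes with the peak in IG only and 0.255% with the peak in TG only. With a difference of at least 3 kidneys, Map3k11 was the single member higher in IG (3.03%), beside 3.3% of all genes, and 0 of 33 were higher in TG, beside 1.17%. Of 6666 genes, 51 were called before adjustment and none after it. The direction of the 51 genes (34 higher in IG and 17 in TG) turned at equal list lengths to 12 and 31, with no member called.

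Peak loci, which are stretches of overlapping peaks on the same strand, gave 99 loci on the 40 members. In IvC, 4 of 97 member loci (4.12%) had a peak in all controls and no IG kidneys, beside 2.73% of all loci. They were Map3k1 exon 1, Map2k6 exons 10 and 11 and Dusp7 exon 2, and the 2 loci of Map2k6 belong to the same transcript. In the other direction the count was 0 of 97, beside 1.35%. In lists of equal length, Dusp7 exon 2 was the only one of these still called. Map3k11 exon 11 was then also higher in controls, and Dusp10 exon 2 and Map3k8 exon 2 in IG, so 2 member loci were called in each direction, and all loci split into 221 higher in controls and 225 in IG, in place of 438 and 217. With a difference of at least 3 kidneys, 8 of 97 (8.25%) were higher in controls, beside 8.95%, and 1 of 97 (1.03%), Dusp10 exon 2, was higher in IG, beside 3.82%. The lowest adjusted p of a member locus, from Fisher's exact test, was 0.701. In TvI, 0 of 69 member loci were called, beside 0.449% of all loci higher in IG and 0.217% higher in TG (60 and 29 loci, which turned to 29 and 56 at equal list lengths). With a difference of at least 3 kidneys, 1 of 69 (1.45%), Map3k11 exon 12, was higher in IG, beside 3.21%, and 0 of 69 were higher in TG, beside 1.28%.

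Score percentiles were compared for genes with a peak in all 8 kidneys of a comparison. In IvC, 2 of 15 members (Map4k4 and Map3k9) were higher in IG with an unadjusted exact permutation p under 0.05, 13.3% of the members beside 7.67% of all 2308 genes. In the other direction the count was 0 of 15, beside 15.5% of all genes. The split of all genes, 357 higher in controls and 177 in IG, turned at equal list lengths to 180 and 209. The number of members called there was also 2, higher in IG. The median IvC difference was -2.90 percentile points over the members and -2.38 over all genes. In TvI, 0 of 9 members were called, beside 4.27% of all genes higher in IG and 2.8% higher in TG, and the median differences were -0.958 over the members and -1.53 over all genes. The split of all genes, 90 higher in IG and 59 in TG, was 40 and 93 at equal list lengths. The lowest adjusted p was 0.123 in IvC and 0.404 in TvI.

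**Figure D5:**
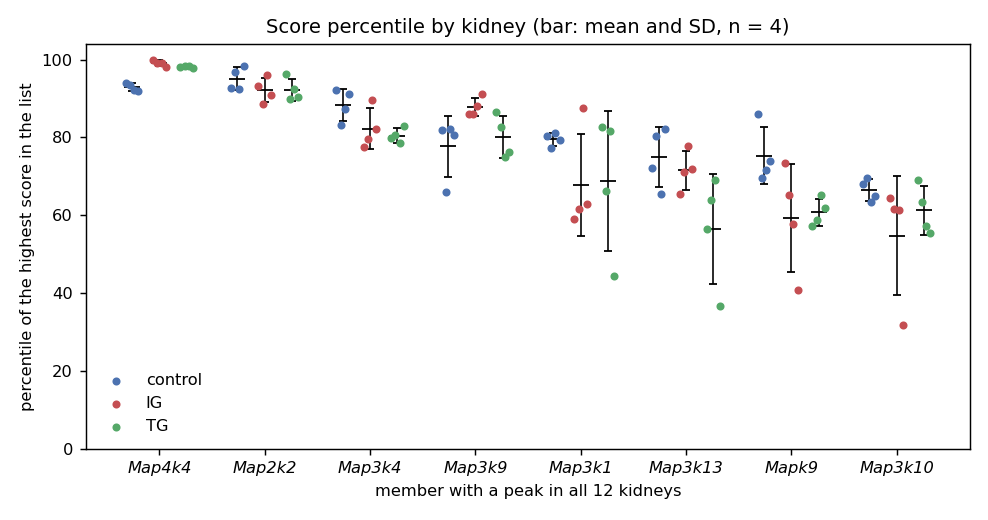
Score percentile of the 8 members with a peak in all 12 kidneys, by group, with points for kidneys and mean ± SD. Map4k4 lies at 92.0 to 94.1 in controls and at 97.7 to 99.8 after cisplatin, whereas Map2k2, at 88.5 to 98.3, overlaps across all groups.

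Members with a peak differed from those without in gene structure, as did all genes. The 40 members with a peak had a median of 11.5 exons, a transcript of 3506 bases and a longest exon of 1454.5 bases, beside 9, 2722 and 1099 for the 33 members without. Of 503 member exons in genes with a peak, the 96 with a peak had a median length of 345.5 bases and the others 130 bases. Over all genes the values were 231 bases for 16026 exons with a peak, of 92181, and 129 bases for the others. The last exon had a peak in 25 of the 40 members (62.5%), beside 57.3% of all genes with a peak.

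Member loci were spread along the transcript much as all loci were. Of 91 member loci that could be assigned, 57.1% had their midpoint in the coding sequence, 16.5% within 200 bases of the stop codon, 14.3% in the 3′ UTR, 12.1% within 200 bases of the start codon and 0% in the 5′ UTR. The shares of all 15334 loci were 58.9%, 13.9%, 11.7%, 14.1% and 1.38%. RRACH was present on the gene strand in 89.6% of 67 member loci found in at least 2 kidneys of a group (80.6% on the opposite strand), beside 94.7% of all 11796 such loci (82.0%). GGACT, a form of RRACH, was present in 56.7% of the member loci (47.8% on the opposite strand) and in 42.3% of all loci (39.6%), and member loci were longer, with a median of 589 beside 370.5 bases. In windows of 101 bases around the midpoint, where length is equal, GGACT was present in 13.4% of member loci and, at 14.9%, in slightly more on the opposite strand, beside 9.97% and 8.87% of all loci. RRACH was present in 70.1% of member windows (58.2% on the opposite strand) and 80.3% of all windows (59.7%). Of the 99 member loci, 11 (11.1%) were found in all 12 kidneys and 24 (24.2%) in a single kidney, beside 14.4% and 23.1% of all 16815 loci.

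Genes of the pathway that the naming rule misses were counted in the same way. Of 63 such genes, 41 had a peak in any kidney and 10 in all 12, and the mean per kidney was 29.5, 22 and 17.75 in control, IG and TG. Over all protein-coding genes the means were 4966, 4378.25 and 3836. The complete lists were used here, in which controls have the most peaks. No such gene had a peak in 4 of 4 against 0 of 4 kidneys in either comparison. Peaks were found on 5 of 10 GTPases and adaptors, 5 of 10 kinases with other names, 8 of 10 scaffolds and adaptors, 8 of 11 negative regulators, 4 of 11 downstream kinases, 8 of 8 downstream transcription factors and 3 of 3 GADD45 stress inducers. The means per kidney in control, IG and TG were 6.25, 3.5 and 3.75 for the scaffolds and adaptors, 3.5, 2.75 and 2 for the GTPases and adaptors, 4.75, 4.5 and 4 for the kinases with other names and 5, 4.75 and 3 for the negative regulators. They were 2, 0.75 and 0.25 for the downstream kinases, 5, 4 and 3 for the transcription factors and 3, 1.75 and 1.75 for the stress inducers. Control and IG counts overlapped or met in every list except the scaffolds and adaptors, with 5 to 8 in control and 3 to 4 in IG kidneys. Over all protein-coding genes they did not overlap either, with 4775 to 5138 in control and 4091 to 4685 in IG kidneys.

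Markers of the cell types in a whole kidney were counted beside these results. Peaks were found on 3 of 10 kidney epithelium markers (0 to 2 per control, 1 to 2 per IG and 0 to 1 per TG kidney), and Lrp2, Slc34a1, Umod and Aqp2 had none, so peaks do not serve to identify the tissue. Tubular injury markers had peaks on 3 of 5, at 1 per control kidney, 2 to 3 per IG kidney and 2 to 3 per TG kidney. Among these, Havcr1 (KIM-1) had a peak in 0, 4 and 3 kidneys, Sox9 in 0, 4 and 4 and Vcam1 in 4, 3 and 3. Lcn2 and Krt20 had none. Leukocyte markers had peaks on 3 of 8, at 0 to 1, 1 and 1 to 2 per kidney, with Itgam in 0, 4 and 4 kidneys, Ptprc in 1, 0 and 0 and Cd79a in 0, 0 and 1. Slc12a1, of the thick ascending limb, had a peak in 1, 4 and 0 kidneys. Endothelial markers (3 of 4 with a peak), podocyte markers (3 of 4) and fibroblast and smooth muscle markers (3 of 5) overlapped between groups. Havcr1, Sox9 and Itgam thus separated control from IG kidneys in presence, as Map2k6 and Dusp7 did in the opposite direction. The other injury and leukocyte markers did not. The part of injury and leukocyte content in the results above was not tested.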

How the data were processed

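m6A peak lists of 12 kidneys were used, grouped and numbered by the sample labels. Per the submitters' processing notes and the study's methods, reads were trimmed with cutadapt 1.9.3 and aligned with HISAT2 2.0.4 to mm10 (GRCm38), and MACS called peaks per kidney. The MACS version and threshold are not given in the sources used here. The score of each peak, as the authors deposited it, is -10 times log10 of its p-value. The lowest deposited scores were between 13.02 and 13.04 in each list.

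BED starts were shifted by 1. Exons were those of GENCODE M21, and 1 bp of same-strand overlap counted. Fisher's exact tests (presence) and exact permutation tests over 70 arrangements (percentile) were run over all genes or loci, with Benjamini-Hochberg adjustment, in Python 3.11.15 with numpy 2.4.6, scipy 1.17.1, pysam 0.24.0 and matplotlib 3.10.9, after the code had been tested on simulated data. "Called" means an unadjusted p under 0.05, and "higher" for presence means found in more kidneys. The replicates were separate mice as far as the labels tell. No pair among the 66 pairs of kidneys shared more than 1.05% of peaks in position and score.

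Members, tiers, pathway genes and markers were chosen with earlier results of these data known. Members named kidney by kidney were those with a difference of at least 3 kidneys, up to 3 per tier with a peak in all 12 kidneys, those called by percentile and those with a called locus. Some others, among them Map3k8, Dusp16, Mapk7 and Mapk14, were given by kidney outside this rule. Members without a peak were named only, and some single genes are not reported here. Of pathway genes and markers, those with 4 of 4 against 0 of 4 kidneys were named, as were pathway genes picked for the closing section and some markers after their values were seen, and the remaining members were summarised. Alternatives varied the list length, score minimum, exons, strand, overlap, joining distance, scale, codon segments and motif window, left out each kidney in turn, or used a replicate block. An alternative limited to peaks of no other gene was added after seeing the data.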

Additional observations from a re-analysis of the deposited data

Results flagged for a closer look

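Of 30 groups of 4 kidneys examined, 3 had a kidney that stood apart from the other three by Dixon's criterion, which chance alone meets in about 1 in 20 groups. For Map3k1, IG replicate 3 had a score percentile of 87.4, while the other IG kidneys had 59.1, 61.7 and 62.9. For Map3k9, control replicate 2 had 66.1, while the other controls had 80.7 to 82.1. For Map3k10, IG replicate 4 had 31.8, while the other IG kidneys had 61.3 to 64.3.

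Without IG replicate 3, the IvC difference of Map3k1 was -18.3 percentile points (exact permutation p = 0.0286), and without control replicate 2 that of Map3k9 was 6.23 (exact permutation p = 0.0286). For Map3k1, IG replicate 3 was picked from these same values and was the only IG kidney not below every control. Leaving it out therefore fixed that p at its lowest. Without IG replicate 4, that of Map3k10 was -4.12 (exact permutation p = 0.114), beside -11.8 with every kidney (exact permutation p = 0.0571).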

How the results depend on the processing

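When peaks scoring below 71.3, the median over every list, were dropped, the IvC calls by presence were 213 genes (381 with all peaks), 0 members (2), 346 loci (655) and 0 member loci (4), and the calls by percentile were 306 genes (534). The TvI calls were then 30 genes (51), 1 member (0), 51 loci (89), 1 member locus (0) and, by percentile, 84 genes (149). That member was Dusp16, with a peak of such a score in 3, 4 and 0 kidneys of control, IG and TG. With a difference of at least 3 kidneys as the call, IvC gave 1007 genes, 5 members, 2053 loci and 9 member loci, and TvI gave 298 genes, 1 member, 600 loci and 1 member locus. The TvI percentile calls were 1 member on the log10 score, and 230 genes and 2 members with a peak in at least 6 of 8 kidneys. Members per kidney differed by -5.25 in IvC and -5.5 in TvI, by -1.5 and -2.75 at equal list lengths, by -2.5 in IvC above the median score, by -4.5 in TvI with 50 bp of overlap, and by -4.5 and -5.5 with peaks of no other gene, an alternative chosen after seeing the data. The share of member loci was 68.1% in the coding sequence and 7.69% at the stop codon with codon segments of 100 nt, and 31.5% at the stop codon and 1.09% in the 3′ UTR when a peak that holds a codon was counted to it. Within 50 bp of the midpoint, RRACH was found in 70.1% and GGACT in 13.4% of member loci. The causes of these shifts were not tested.

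Replicate numbers did not pair the kidneys. Correlations of deviations between kidneys of the same number ran from -0.0252 to 0.0156 in IvC (1 of 4 kidneys correlated best with its own number) and from -0.0195 to 0.0420 in TvI (2 of 4). Under the replicate block, sign flips of 4 pairs cannot give p below 0.125, so the calls were 0 for genes, members, loci and member loci by presence and 0 for genes and members by percentile in both comparisons, which says nothing about stability.

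Leaving out each kidney in turn gave, in IvC, 440 to 492 genes, 2 to 3 members, 792 to 854 loci and 4 to 6 member loci by presence, 352 to 508 genes and 1 to 4 members by percentile, and -5.75 to -4.75 members per kidney. In TvI it gave 74 to 89 genes, 0 to 1 members, 136 to 175 loci and 0 to 1 member loci by presence, 105 to 153 genes and 0 to 2 members by percentile, and -5.92 to -5.25 members per kidney. Dusp10 was called without control replicate 2, Dusp14 without IG replicate 2, Map2k7 without control replicate 4 and, in TvI, Map3k11 without TG replicate 4. Each of these kidneys was the only one of its group to differ from the rest, so leaving it out fixed the call. By percentile in IvC, Map3k10 (-15.0) and Mapk9 (-20.8) were called without IG replicate 1, Map3k1 (-18.3) without IG replicate 3 and Map3k8 (41.2) without control replicate 1. Map3k8 had no peak in control replicate 1, so its percentile was not tested with every kidney. For Map3k10, Mapk9 and Map3k1, the kidney left out was the only IG kidney not below every control. Leaving it out fixed the call. Map4k4 was called without any 1 of the 8 kidneys. In TvI, Map4k4 (-1.28) was called without IG replicate 4, Map3k9 (-9.89) without TG replicate 1, Map3k13 (-19.2) and Dusp16 (-47.6) without TG replicate 3 and Mapk1ip1 (-27.0) without TG replicate 4. Dusp16 and Mapk1ip1 had no peak in the kidney left out, so their percentiles were not tested with every kidney. For Map4k4, Map3k9 and Map3k13, the kidney left out was the only one that kept the groups from separating, which fixed the call. Among single members, the call on Dusp7 was lost above the median score and that on Map2k6 there and at equal list lengths (-3 kidneys each). The difference in members per kidney and the named differences in kidneys kept their sign under the alternatives run, but the lean of the calls did not. At equal list lengths the calls higher in the earlier group of each pair (control in IvC, IG in TvI) and in the later group changed from 238 and 143 to 131 and 146 genes by presence in IvC, from 34 and 17 to 12 and 31 in TvI, and by percentile from 357 and 177 to 180 and 209 and from 90 and 59 to 40 and 93. By percentile, IvC gave 166 to 174 genes higher in controls and 178 to 186 in IG without a control kidney, but 378 to 413 and 85 to 95 without an IG kidney. TvI gave 38 to 61 genes higher in IG and 62 to 75 in TG without an IG kidney, but 105 to 124 and 28 to 30 without a TG kidney. Of the summary counts and differences, taken without regard to direction, 152 stayed within 1.5 times the main count or, for a difference, moved by less than the spread between kidneys or, for a share, stayed within its binomial interval, and 66 moved further. The 152 and the 66 include results of the replicate block, whose outcomes were fixed in advance.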

Other observations

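Peaks on pathway genes outside the naming rule were described by role, as values with no explanation. Sos1, an exchange factor of RAS, had a peak in all 12 kidneys. The STE20-type kinases Taok1, Taok2, Taok3 and Mink1 had a peak in all 12 kidneys.

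Among scaffolds and adaptors, Tab2 had a peak in all 12 kidneys, Tab1 in 4, 2 and 0 kidneys of control, IG and TG, and Traf6 in 4, 4 and 2. Among feedback inhibitors, Spry1 had a peak in all 12 kidneys and Spry2 in 4, 3 and 1. Of the kinases downstream of ERK and p38, Rps6ka5 (MSK1) had a peak in 4, 2 and 0 kidneys, and 7 of 11 had none. Of the stress inducers that bind Map3k4, Gadd45g had a peak in all 12 kidneys, Gadd45a in 4, 2 and 3 and Gadd45b in 4, 1 and 0. These genes were picked for description after their values were seen, and none of them had a peak in 4 of 4 against 0 of 4 kidneys in IvC or TvI.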
